A study of Mus musculus with 8 samples.

Results

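The subject here is the family of 6 glycoprotein hormone subunit genes, *Cga*, *Lhb*, *Fshb*, *Tshb*, *Gpha2* and *Gphb5*, in gonadotropes isolated from the mouse pituitary. The members were chosen by name, each matched 1 entry of the 55523 entries in the count table, and 5 of the 6 passed edgeR's filter on low counts. The source was the pituitary of the mouse line Ad4BP-BAC-EGFP, in which a bacterial artificial chromosome of the *Nr5a1* gene (Ad4BP is another name of NR5A1) drives EGFP. Cells expressing EGFP were sorted, and RNA was sequenced from 4 samples of males and 4 samples of females. All samples carry this transgene, and sex is the only factor that the labels give between the groups. The age of the mice and the number of animals in a sample are not given in the sources used here, so p-values measure the spread between these samples.

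The hormones of this family are dimers of a shared alpha subunit and a beta subunit that gives each hormone its receptor specificity. *Cga* encodes the common alpha subunit, *Lhb* and *Fshb* encode the beta subunits of the gonadotropins LH (luteinizing hormone) and FSH (follicle-stimulating hormone), which gonadotropes secrete to control the gonads, and *Tshb* encodes the beta subunit of thyroid-stimulating hormone, the product of thyrotropes. *Gpha2* and *Gphb5* encode the alpha and beta subunits of thyrostimulin, a related dimer that acts on the thyroid-stimulating hormone receptor. Beta subunits are usually thought to limit the amount of hormone, with free alpha subunit made in excess.

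Depth was between 18774578 and 31302588 counts per sample, and 3 counts, taken as the floor, equal 0.0958 to 0.160 CPM (counts-per-million of the library total), a limit that covers counting error only. Levels below are CPM scaled between libraries by edgeR's TMM factors. Male replicate 1 is shown apart because the study left it out of its own analysis. Its *Nr5a1* level, the gene whose regulatory region drives the sorted reporter, was 16.3 CPM, whereas the females had 862 to 1266 CPM and male replicates 2 to 4 had 584 to 801 CPM. It also held 110079 CPM of the nuclear transcript *Malat1*, against 7790 to 15167 CPM in the other 7 samples. The 6 gonadotrope markers other than the members (*Gnrhr*, *Nr5a1*, *Tgfbr3l*, *Foxl2*, *Nr0b1* and *Spp1*) had counts in all 8 samples and summed to 3892 to 5729 CPM in females, whereas male replicates 2 to 4 had 6643 to 9997 CPM and male replicate 1 had 4225 CPM. Without *Spp1*, which alone had 145 to 568 CPM in females and 644 to 3670 CPM in these males, the sums overlapped, at 3669 to 5584 CPM and 4178 to 6326 CPM. Male replicate 1 then had 3140 CPM, the lowest of the 8 samples. Markers of other pituitary cells were also present. *Gh*, the somatotrope hormone, was 12394 to 57859 CPM in females and lay above this range in male replicates 2 to 4 (65329 to 142244 CPM), with 30128 CPM in male replicate 1, and *Pomc*, the corticotrope and melanotrope precursor, was 10140 to 28580 CPM over the 8 samples. In such sorted bulk samples, fewer cells of a type and less RNA per cell cannot be told apart.

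On GRCm38, *Cga* (ENSMUSG00000028298.10) lies on chromosome 4 from 34893779 to 34907370 on the plus strand, and *Lhb* (ENSMUSG00000100916.3) on chromosome 7 from 45420820 to 45421897 on the plus strand, in the GENCODE M21 annotation. *Fshb* (ENSMUSG00000027120.6) lies on chromosome 2 from 107056140 to 107059656 on the minus strand, and *Tshb* (ENSMUSG00000027857.10) on chromosome 3 from 102775465 to 102782718 on the minus strand. No member shared its assembled locus with another entry, but 4 members overlap a gene on the other strand. The 3′ part of *Cga* overlaps the antisense transcript *Platr9* over 1247 bp of the gene bodies, and *Platr9* had 247 to 1126 CPM. *Lhb* overlaps *Ruvbl2* over 138 bp, with 3.62 to 5.84 CPM of *Ruvbl2*, *Tshb* lies whole inside the span of *Tspan2*, which had 117 to 214 CPM, more than *Tshb* had in any female, and *Gpha2* overlaps *Ppp2r5b* over 4 bp. Counting at the default settings that the paper states ignores strand. If the deposited counts were made so, reads from the overlapping stretches could not be assigned by strand.

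The 250 bases upstream of the RefSeq start of the 4 pituitary members are shown because the cells were sorted on an *Nr5a1* reporter and NR5A1 is known to act on several of these genes. Capitals mark the letters AAGGNCA on either strand, the half-site that NR5A1 binds, and TATAAA on the strand of the gene. All 6 members matched an entry of the RefSeq promoter table (GRCm38.p6), and coordinates with strand are given before each sequence.
*Cga*, chr4:34893529-34893778, plus strand: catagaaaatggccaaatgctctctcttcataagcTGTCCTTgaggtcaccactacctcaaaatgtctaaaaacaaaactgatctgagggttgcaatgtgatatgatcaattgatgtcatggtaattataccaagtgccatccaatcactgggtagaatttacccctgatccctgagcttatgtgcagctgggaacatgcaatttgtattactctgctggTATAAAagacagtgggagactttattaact
*Lhb*, chr7:45420696-45420945, plus strand: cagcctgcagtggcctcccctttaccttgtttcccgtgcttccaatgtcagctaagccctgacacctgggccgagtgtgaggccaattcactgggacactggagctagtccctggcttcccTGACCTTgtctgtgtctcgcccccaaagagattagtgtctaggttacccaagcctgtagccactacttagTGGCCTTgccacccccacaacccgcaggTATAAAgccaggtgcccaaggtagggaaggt
*Fshb*, chr2:107059652-107059901, minus strand: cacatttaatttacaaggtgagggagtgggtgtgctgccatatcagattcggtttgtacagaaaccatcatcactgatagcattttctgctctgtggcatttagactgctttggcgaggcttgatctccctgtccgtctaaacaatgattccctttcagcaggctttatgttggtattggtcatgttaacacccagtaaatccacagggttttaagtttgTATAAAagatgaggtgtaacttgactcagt
*Tshb*, chr3:102782715-102782964, minus strand: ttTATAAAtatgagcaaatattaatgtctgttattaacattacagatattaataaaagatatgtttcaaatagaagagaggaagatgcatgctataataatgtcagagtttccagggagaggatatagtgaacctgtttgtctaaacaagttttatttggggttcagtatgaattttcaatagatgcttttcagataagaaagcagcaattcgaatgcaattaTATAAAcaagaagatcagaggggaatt

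The NR5A1-type letters occurred in *Lhb* at positions -129 to -123 and -59 to -53, counted from the base before the start as -1, and in *Cga* at -215 to -209, each on the strand opposite to the gene. They were not in the *Fshb* and *Tshb* windows, and 17.5% of the 32851 upstream windows of the same length hold them. The 4 windows each hold TATAAA near the start, which 12.4% of all windows hold on either strand, and the *Tshb* window holds it also at its far end. In *Lhb* the letters GATTA, the core of bicoid-type sites bound by PITX1, lie at -100 to -96 (19.8% of all windows). The letters GNGGGNG, a core of EGR1-type sites, occurred in *Lhb* between -112 and -106 and, as overlapping matches, between -50 and -42, and also in *Cga* and *Fshb* (60.3% of all windows). TAATTA, a core bound by LIM homeodomain proteins such as LHX3, was in *Cga* at -128 to -123 (4.84% of all windows). The palindromes TGACGTCA and GTCTAGAC, bound by CREB and SMAD proteins, were in none of these 4 windows. Bases upstream of the windows were not searched, so letters absent from a window may lie further upstream. A match is a description of letters and no evidence of binding, and the GENCODE gene models of *Lhb*, *Fshb* and *Tshb* begin inside the windows shown, those of *Fshb* and *Tshb* within a few bases of the RefSeq start.

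*Cga*, the common alpha subunit, was among the most abundant transcripts of every library, ranked between 2 and 5 by count. In females it was 13359, 18697, 25090 and 15067 CPM (TMM-scaled) in replicates 1 to 4. In male replicates 2, 3 and 4 it was 27411, 24630 and 50707 CPM, and in male replicate 1 it was 12836 CPM, the lowest of the 8. Male replicate 4 stood far above the others, whereas male replicate 3 lay below the highest female, so the sexes overlapped.

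*Lhb*, the LH beta subunit, varied least. It was 5142, 4139, 5770 and 6519 CPM in female replicates 1 to 4 and 8393, 9610 and 6286 CPM in male replicates 2, 3 and 4. Male replicate 1 had 9337 CPM, inside the range of the other males, although its *Nr5a1* was far below theirs. The highest female and the lowest male (replicate 4) overlapped. The coefficient of variation of *Lhb* was 18.7% in females (n = 4) and 20.8% in male replicates 2 to 4 (n = 3), below the medians of 27.9% and 23.6% over the genes tested.

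*Fshb*, the FSH beta subunit, spread over 22.0-fold between the lowest and the highest of the 8 samples. In female replicates 1 to 4 it was 1430, 3086, 1402 and 5699 CPM. In male replicates 2, 3 and 4 it was 30469, 30905 and 16894 CPM, and in male replicate 1 it was 5760 CPM. Each of these 3 males was above each female, and male replicate 1 lay next to the highest female. By count, *Fshb* ranked between 13 and 50 in females and between 2 and 4 in male replicates 2 to 4. Within females its coefficient of variation was 69.7%, higher than that of 85.1% of the genes tested, and in male replicates 2 to 4 it was 30.5%.

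*Tshb*, the thyrotrope beta subunit, was detected in every sample, with 489 to 2720 counts in females and 5374 to 8611 counts in male replicates 2 to 4. It was 20.9, 69.0, 83.5 and 36.3 CPM in female replicates 1 to 4, 339, 235 and 244 CPM in male replicates 2, 3 and 4, and 82.7 CPM in male replicate 1. The 3 males did not overlap the females, while male replicate 1 lay at the upper end of the females. The coefficient of variation was 55.0% in females and 21.1% in the 3 males.

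The thyrostimulin subunits were low or not detected. *Gpha2* had 12 to 122 counts per sample, or 5.22, 1.32, 0.368 and 2.03 CPM in female replicates 1 to 4, and 1.89, 3.36 and 3.72 CPM in male replicates 2, 3 and 4. Male replicate 1 had 3.27 CPM, and the males lay within the range of the females. *Gphb5* had 0 counts in each of the 8 samples, which allows a level of up to 0.0958 to 0.160 CPM by library. *Gphb5* did not pass the filter on low counts and was not tested.

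**Figure D1:**
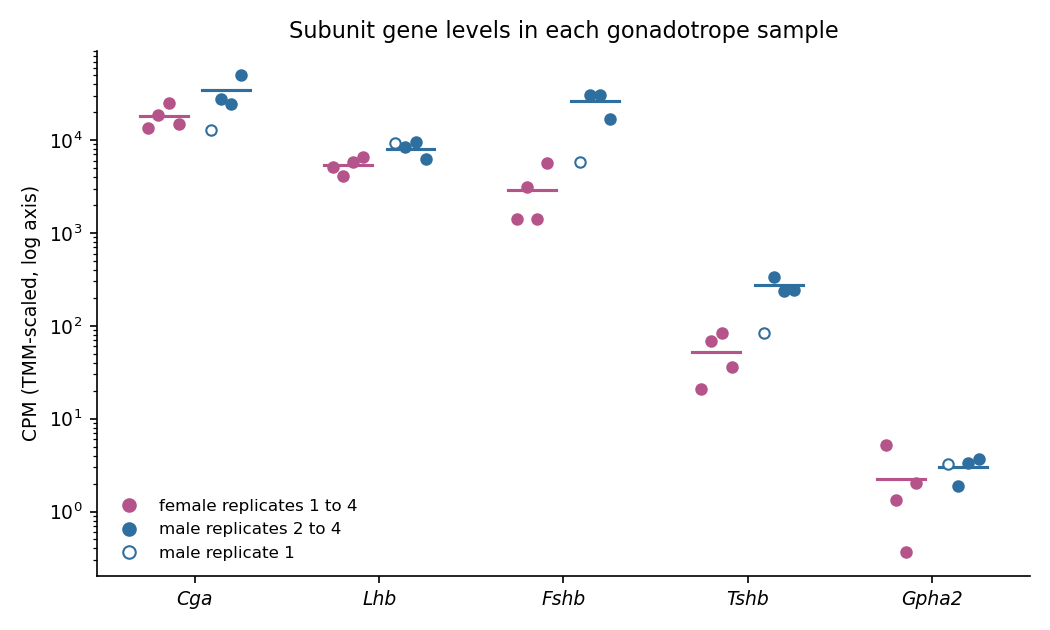
Level of 5 subunit genes in each sample, in CPM with TMM scaling on a log axis; points are samples, bars are means of female replicates 1 to 4 and of male replicates 2 to 4, and open points are male replicate 1. The filled male points lie above all female points for *Fshb* (16894 to 30905 against 1402 to 5699 CPM) and *Tshb* but not for *Cga*, *Lhb* or *Gpha2*; *Gphb5*, with 0 counts, is not drawn.

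Levels were next compared between genes as CPM per kilobase of exon, with the exons of protein-coding transcripts merged. These GENCODE M21 lengths may differ from the gene models counted, which would shift genes against each other by the same factor in every sample. Counts are per gene, so coding length below is only a second choice of length. In females the order was *Cga* (18924 ± 5443 CPM per kb, SD, n = 4), *Lhb* (7954 ± 1486), *Fshb* (1815 ± 1264), *Tshb* (80.8 ± 44.4) and *Gpha2* (2.90 ± 2.73). No neighbours in this order overlapped over the 4 females. In male replicates 2 to 4 *Fshb* moved above *Lhb*, at 35901 ± 15011 CPM per kb for *Cga* (SD, n = 3), 16306 ± 4979 for *Fshb*, 11942 ± 2480 for *Lhb*, 421 ± 88.8 for *Tshb* and 3.89 ± 1.26 for *Gpha2*. *Fshb* and *Lhb* overlapped over these males, although *Fshb* was the higher in each of the 3. The *Fshb* transcript is 1600 bp long with 390 bp of coding sequence, whereas the *Cga* exons sum to 954 bp with 360 bp of coding sequence. Per kilobase of coding sequence each sex kept its own order of the means. However, *Lhb* and *Fshb* overlapped in females, and *Cga* exceeded *Fshb* in only 1 of the 3 males.

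The 4 genes *Cga*, *Lhb*, *Fshb* and *Tshb* together took 2.82% ± 0.467 of all counts in females (SD, n = 4) and 6.23% ± 0.314 in male replicates 2 to 4 (n = 3). Each of these males, at 6.04% to 6.59%, was above each female, at 2.23% to 3.37%. Male replicate 1 had 2.82%, within the range of the females. Among the beta subunits, per kilobase of exon, *Fshb* made up 10.5%, 23.7%, 9.21% and 26.9% in female replicates 1 to 4, and *Lhb* made up nearly all of the rest. In male replicates 2, 3 and 4 *Fshb* made up 59.6%, 57.1% and 52.3%, and in male replicate 1 it made up 20.6%. These shares depend on the length used, as the ratios below do. *Tshb* was between 0.379% and 1.35% of the beta subunit level in females and between 1.07% and 1.86% in male replicates 2 to 4, so it was a small part of the beta subunits in both sexes.

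**Figure D2:**
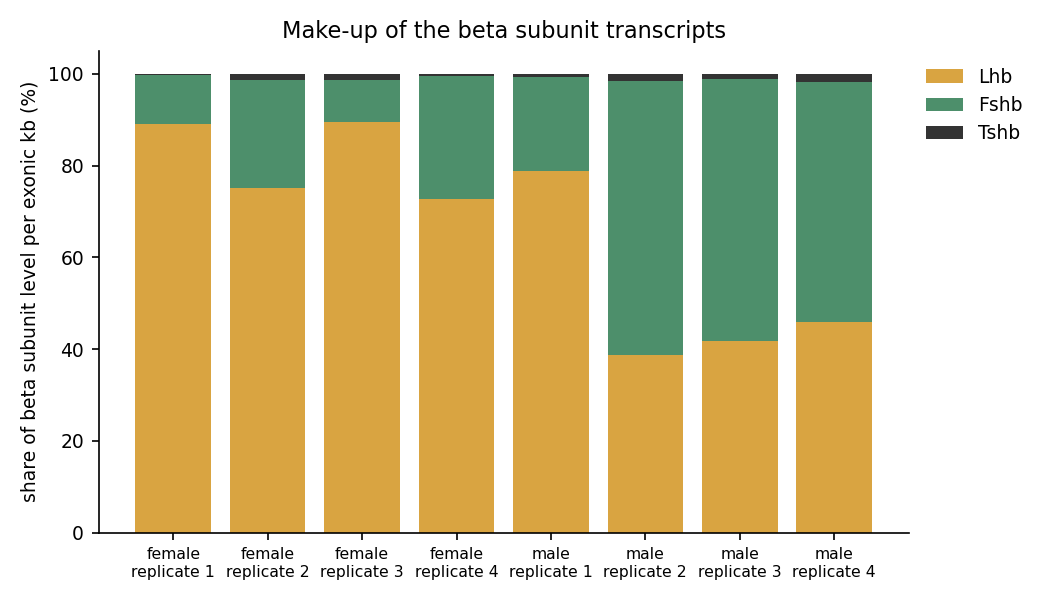
Make-up of the beta subunit transcripts in each sample, as the percent of the summed *Lhb*, *Fshb* and *Tshb* level per kilobase of exon. *Lhb* is the larger part in the 4 females and in male replicate 1, and *Fshb* is between 52.3% and 59.6% in male replicates 2 to 4.

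Ratios of members were then formed within each library, which removes the scaling between libraries. The ratio of *Fshb* to *Lhb*, per kilobase of exon, was 0.118, 0.316, 0.103 and 0.370 in female replicates 1 to 4. It was 1.54, 1.36 and 1.14 in male replicates 2, 3 and 4 and 0.261 in male replicate 1. Per kilobase of coding sequence it was 0.263 to 0.948 in females, 2.91 to 3.94 in male replicates 2 to 4 and 0.669 in male replicate 1. The size of the ratio thus depends on the length used. The sexes did not overlap without male replicate 1, which fell among the females. The geometric mean ratio was 6.88-fold higher in males (log2 difference 2.78, standard error 0.49), with p = 0.0286 in a two-sided exact permutation test, the smallest p that the 35 splits of 3 against 4 allow. The p was 0.0571 after Benjamini-Hochberg adjustment of the exact permutation tests over the 4 ratios examined. With male replicate 1 included, the log2 difference was 2.19 and the exact permutation p was 0.0857.

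The ratio of *Tshb* to *Cga* was 0.00230, 0.00543, 0.00489 and 0.00354 in female replicates 1 to 4 and 0.0182, 0.0141 and 0.00707 in male replicates 2, 3 and 4. Male replicate 1, at 0.00947, lay among the males. The ratio was 3.18-fold higher in males (log2 difference 1.67, standard error 0.49, two-sided exact permutation p = 0.0286, adjusted p = 0.0571 over the 4 ratios). For this ratio the sexes did not overlap with or without male replicate 1.

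The ratio of *Cga* to *Lhb* was between 1.64 and 3.21 in females and between 1.82 and 5.73 in male replicates 2 to 4, and 0.977 in male replicate 1. Its log2 difference of males over females was 0.31 (standard error 0.56, two-sided exact permutation p = 0.600, adjusted p = 0.600), so the difference was smaller than the spread between samples. It was -0.19 without male replicate 4 and -0.086 with all 8 samples, so its direction rested on single libraries. The ratio of *Cga* to *Fshb* was between 4.43 and 30.0 in females and between 1.34 and 5.03 in male replicates 2 to 4, with 3.74 in male replicate 1. The sexes overlapped, and the log2 difference was -2.48 (standard error 0.84, two-sided exact permutation p = 0.0857, adjusted p = 0.114). With single samples left out this difference lay between -3.09 and -2.04. *Fshb* enters 2 of the 4 ratios and *Cga* 3 of them, so the ratios are not independent of each other, nor of the levels above.

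The balance of *Cga* over the summed beta subunits, per kilobase of exon, was 1.65, 2.41, 2.76 and 1.19 in female replicates 1 to 4, so every female was above 1. In male replicates 2 and 3 the alpha subunit lay below the sum, at 0.899 and 0.763, and in male replicate 4 it was 2.63. Male replicate 1 had 0.769. Per kilobase of coding sequence the mean was 2.66 ± 1.09 in females and 1.28 ± 0.970 in male replicates 2 to 4, and the same 2 males remained below 1, at 0.771 and 0.667. Thus the *Cga* level per length exceeded that of the summed beta subunits in the 4 females under both lengths, and the males did not share a direction. The value 1 itself depends on the lengths taken.

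**Figure D3:**
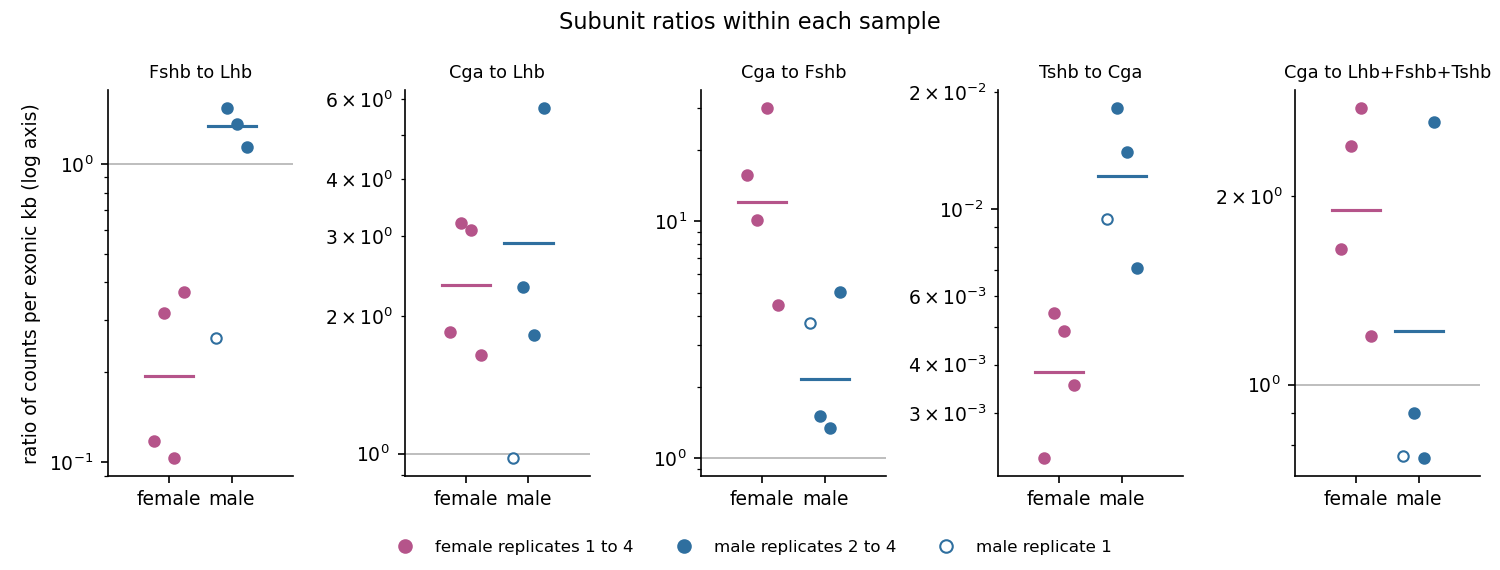
Ratios of counts per exonic kilobase within each sample, on log axes; points are samples, bars are geometric means of female replicates 1 to 4 and of male replicates 2 to 4, and open points are male replicate 1. The last panel is *Cga* over the summed beta subunits, and the ratio of *Fshb* to *Lhb* lies between 0.103 and 0.370 in females and between 1.14 and 1.54 in male replicates 2 to 4.

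Each member was next compared between male replicates 2 to 4 and female replicates 1 to 4 with edgeR's quasi-likelihood test, fitted over 20152 genes. *Fshb* was higher in males by a log2 fold change of 3.13 (standard error 0.56, edgeR adjusted p = 0.0449), and 0.983% of all genes tested were called higher in males at the threshold of 0.05 (2.34% in either direction). The call was close to the threshold. Leaving out single samples kept the log2 fold change of *Fshb* between 2.91 and 3.70, while the edgeR adjusted p ranged from 0.0325 to 0.135, under 0.05 only without female replicate 4. Adding male replicate 1 gave a log2 fold change of 2.84 with an edgeR adjusted p of 0.143.

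*Tshb* had a log2 fold change of 2.35 (standard error 0.46) with an edgeR adjusted p of 0.0525, which missed the threshold. Over its 15 alternative settings the adjusted p of *Tshb* ranged from 9.34e-05 to 0.227, and it passed in 4 of them. *Cga* had a log2 fold change of 0.90 (standard error 0.32, edgeR adjusted p = 0.187), *Lhb* of 0.55 (standard error 0.20, edgeR adjusted p = 0.189) and *Gpha2* of 0.40 (standard error 0.78, edgeR adjusted p = 0.842). No difference between the sexes was called for these 3 genes. Without male replicate 4 the log2 fold change of *Cga* fell to 0.49. That of *Gpha2* was 1.27 without female replicate 1, which had the most *Gpha2*, and 0.057 without female replicate 3. Of the 5 members tested, 2 had every male above every female, where 11.5% of all genes tested did. The direction was higher in males for the 5 members in each of the 15 alternatives.

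**Figure D4:**
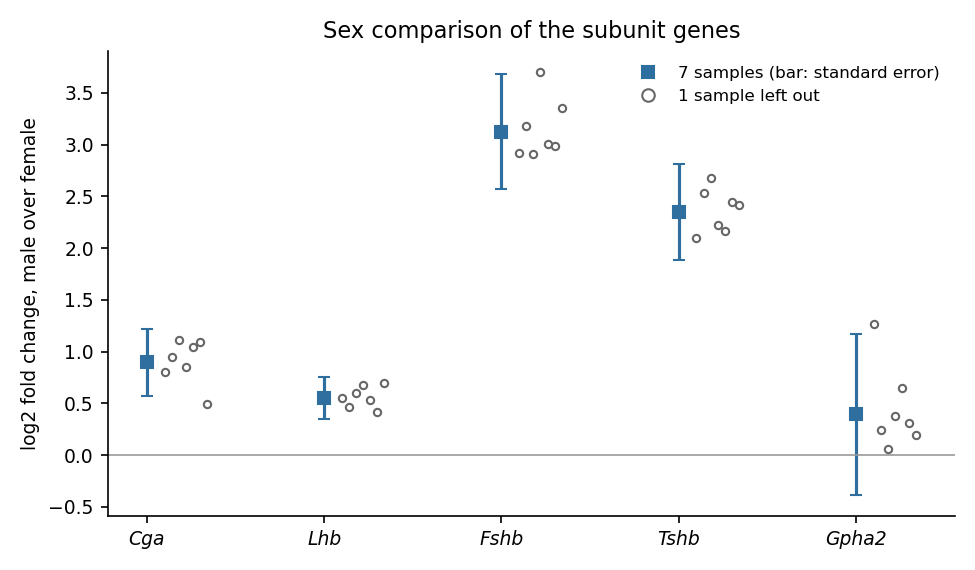
Log2 fold change of males over females for the 5 members tested; squares are the fit of 7 samples with its standard error, and open circles are fits with 1 of these samples left out. *Fshb* stays between 2.91 and 3.70 and *Tshb* between 2.10 and 2.68, while *Cga*, *Lhb* and *Gpha2* lie nearer to 0.

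Other genes of the pathway were examined in lists of 51 genes, of which 46 were tested. In all, 4 were called higher in males and 1 higher in females, with a median log2 fold change of 0.04 against -0.03 over all genes tested. Those higher in males were *Pitx1*, *Inhbb*, *Gata2* and *Pou1f1*, where 0.983% of all genes tested were called in this direction, and the gene higher in females was *Pgr*, where 1.35% of all genes tested were called higher in females. Of the 46 genes, 7 had every male above every female and 11 had every female above every male, where 11.5% and 10.8% of all genes tested did. No list below had more than 2 called genes, and the shares of all genes tested given here are the background for each list.

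Of the 19 regulators of gonadotropin gene expression, 1 was called. *Pitx1*, a homeodomain factor that activates several pituitary hormone genes, was 651, 610.4, 636 and 766 CPM in female replicates 1 to 4 and 1464, 1439 and 1012 CPM in male replicates 2, 3 and 4, with no overlap (log2 fold change 0.94, standard error 0.16, edgeR adjusted p = 0.0417). Male replicate 1, at 841 CPM, lay between the sexes, and with it included *Pitx1* was not called (edgeR adjusted p = 0.186). *Gnrhr*, the receptor through which the hypothalamus drives LH and FSH, was 657 to 1559 CPM in females and 1245 to 2199 CPM in male replicates 2 to 4 (log2 fold change 0.74, edgeR adjusted p = 0.318), and male replicate 1 had 473 CPM, the lowest of the 8. *Nr5a1* was lower in each of the 3 males than in each female, at a log2 fold change of -0.61 (edgeR adjusted p = 0.130), opposite in sign to *Fshb* and *Lhb*. *Egr1*, an immediate early factor that activates *Lhb* after GnRH, was 2073 to 2874 CPM in females and 1516 to 1937 CPM in male replicates 2 to 4 (log2 fold change -0.51, edgeR adjusted p = 0.135), with 3467 CPM in male replicate 1. *Foxl2*, a forkhead factor of *Fshb* expression, was 78.7 to 108 CPM in females and 37.1 to 64.6 CPM in these males (log2 fold change -0.96, edgeR adjusted p = 0.0778), and male replicate 1 lay among the females at 99.2 CPM.

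In the list of the activin and inhibin system, which controls *Fshb*, 1 of 10 tested genes was called. *Inhbb*, the beta B subunit of activin and inhibin, was 47.0 to 60.7 CPM in females and 225, 181 and 116 CPM in male replicates 2, 3 and 4 (log2 fold change 1.61, standard error 0.23, edgeR adjusted p = 0.0295). In male replicate 1 it was 129 CPM. *Fst*, the activin antagonist follistatin, had at most 1.06 CPM and did not pass the filter. *Inha*, the inhibin alpha subunit, and *Acvr1b*, an activin type I receptor, were lower in each of male replicates 2 to 4 than in each female without a call, at log2 fold changes of -1.10 (edgeR adjusted p = 0.0513) and -0.97 (edgeR adjusted p = 0.0735). Male replicate 1 had the most *Inha* of the 8 samples, at 64.4 CPM, and 33.9 CPM of *Acvr1b*, within the range of the females. Of 4 steroid hormone receptors 3 were tested and 1 was called, higher in females. *Pgr*, the progesterone receptor, was 61.8 to 123 CPM in females and 22.3 to 31.2 CPM in these males (log2 fold change -1.70, standard error 0.29, edgeR adjusted p = 0.0417), with 25.5 CPM in male replicate 1. None of the 4 enzymes of the sulfated gonadotropin glycans was called. They were *B4galnt3*, *B4galnt4*, *Chst8* and *Chst9*, with log2 fold changes between -1.97 and 1.71, overlapping sexes and none at an unadjusted p under 0.05 with edgeR.

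Of the 9 tested regulators of *Tshb*, 2 were called higher in males, where 0.983% of all genes tested were. *Gata2*, a zinc finger factor of gonadotropes and thyrotropes, was 64.4, 64.8, 64.8 and 68.5 CPM in female replicates 1 to 4 and 306, 250 and 187 CPM in male replicates 2, 3 and 4. Its log2 fold change was 1.88 (standard error 0.17, edgeR adjusted p = 0.00885), and male replicate 1 had 330 CPM, with the other males. *Pou1f1*, the factor of the thyrotrope, somatotrope and lactotrope lineages, was 16.3 to 35.6 CPM in females and 113, 62.7 and 142 CPM in male replicates 2, 3 and 4 (log2 fold change 1.96, standard error 0.37, edgeR adjusted p = 0.0494). Male replicate 1 lay among the females at 25.8 CPM, and with it included *Pou1f1* was not called (edgeR adjusted p = 0.278). *Thrb*, the thyroid hormone receptor that mediates feedback, was 39.1 to 66.4 CPM in females and 93.4 to 109 CPM in these males (log2 fold change 1.04, edgeR adjusted p = 0.0535), with 38.4 CPM in male replicate 1. *Trhr*, the receptor of thyrotropin-releasing hormone, was at most 2.05 CPM in females and between 2.60 and 5.32 CPM in male replicates 2 to 4 (edgeR adjusted p = 0.183), with 0.830 CPM in male replicate 1. *Dio2*, the deiodinase that makes active thyroid hormone, went the other way, at 63.2 to 139 CPM in females and 39.0 to 49.5 CPM in these males (log2 fold change -1.22, edgeR adjusted p = 0.0721), and male replicate 1 was the lowest of the 8. Each of these males was also below each female for *Thra* (-0.60, edgeR adjusted p = 0.204) and *Tef* (-0.56, edgeR adjusted p = 0.0916). Male replicate 1 had 106 and 154 CPM of them. In this list 4 genes had every male above every female and 3 the reverse, with a median log2 fold change of -0.38.

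The 4 thyrotrope markers (*Tshb*, *Trhr*, *Dio2* and *Pou1f1*) had counts in all 8 samples and summed to 101 to 259 CPM in females and 341 to 497 CPM in male replicates 2 to 4, and male replicate 1 had 130.4 CPM. The other 3 markers went both ways, with *Pou1f1* and *Trhr* higher and *Dio2* lower in each of these males than in each female, and summed to 80.0 to 176 CPM in females and 105 to 195 CPM in male replicates 2 to 4, which overlap, with 47.7 CPM in male replicate 1. *Gh* also had each of these males above each female (log2 fold change 1.14, edgeR adjusted p = 0.289). The other somatotrope marker, *Ghrhr*, overlapped, at 2.95 to 25.7 CPM in females and 8.94 to 60.7 CPM in these males. The lactotrope hormone *Prl* overlapped too (log2 fold change 0.26, edgeR adjusted p = 0.849). The 3 stem cell markers went the other way from *Gh*, with a sum of 287 to 425 CPM in females and 148 to 186 CPM in these males and 311 CPM in male replicate 1. Of these, *Sox9* (edgeR adjusted p = 0.0417) and *Cdh26* (edgeR adjusted p = 0.0470) were called higher in females, and *Sox2* was not (edgeR adjusted p = 0.0748). The part of other pituitary cells in the level of *Tshb* and *Cga*, which thyrotropes express too, was not tested. Among fits with 1 sample left out, *Pou1f1* and *Pgr* were called in none, and *Pitx1* and *Inhbb* were called only without male replicate 4. *Gata2* was called with each sample left out, at edgeR adjusted p between 0.00750 and 0.0316.

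**Figure D5:**
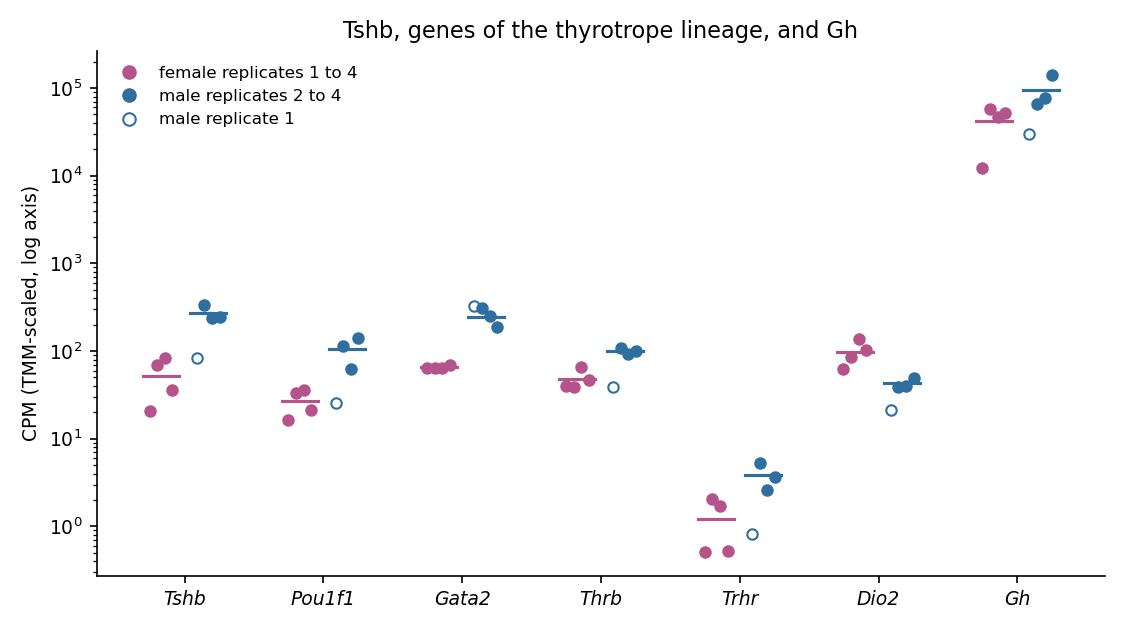
Level of *Tshb*, of genes of the thyrotrope lineage and of *Gh* in each sample, in CPM on a log axis; bars are means of female replicates 1 to 4 and of male replicates 2 to 4, and open points are male replicate 1. The filled male points lie above the female points for *Tshb*, *Pou1f1*, *Gata2*, *Thrb*, *Trhr* and *Gh* and below them for *Dio2*. The genes drawn are a selection. *Thra* and *Tef*, regulators of *Tshb* that are not drawn, were lower in each of male replicates 2 to 4 than in each female. *Ghrhr* and *Prl*, also not drawn, overlapped between the sexes.

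Transcripts of the receptors of these hormones, which act in the gonads and the thyroid, were scarce. *Fshr* had 0 counts in all 8 samples, and *Lhcgr* had counts in female replicate 1 only, at 1.07 CPM. *Tshr* was between 1.67 and 4.88 CPM in females and between 3.11 and 6.49 CPM in male replicates 2 to 4 (log2 fold change 0.65, edgeR adjusted p = 0.466), with 4.76 CPM in male replicate 1.

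The genes whose pattern over the 8 samples was most like that of each member were named by the Pearson correlation of log2(CPM + 1), among 10520 other genes with a mean of at least 10 CPM. These values are a description, since the 8 samples share the difference of sex and no test was made. For *Fshb* they were *Ogfod1* (r = 0.98), *Ell2* (r = 0.98) and *Erc2* (r = 0.98), and 78 genes had r above 0.9. *Ell2*, an elongation factor of RNA polymerase II, was 46.2 CPM on average in females and 135 CPM in male replicates 2 to 4. For *Tshb* they were *Blvra* (r = 0.99), *Gprasp1* (r = 0.99) and *Smco4* (r = 0.98), and 150 genes had r above 0.9. For *Lhb* they were *Sertad4* (r = 0.97), *Dab2* (r = 0.96) and *Rbpj* (r = 0.95), and for *Cga* they were *Mettl23* (r = 0.95), *Gm26617* (r = 0.94) and *Gpank1* (r = 0.94), with 27 and 32 genes above 0.9. No member was among the 3 nearest genes of another.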

How the data were processed

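The data are paired-end RNA-seq of 8 sorted gonadotrope samples, made with a kit for low input. According to the paper's methods and the submitters' processing notes, the authors trimmed reads with cutadapt, mapped them to mm10 with STAR and counted them per gene with featureCounts at default settings. The deposited values are counts per gene, in 1 table of 55523 entries. Entries such as that of *Cga* (MSTRG.16484) are named for assembled loci, and the paper's methods describe no assembly. How the deposited counts were made is thus not certain. The annotation behind the entries is not given in the sources used here. Counts were analysed with edgeR (version 4.0.16) in R 4.3.3, with TMM scaling, filterByExpr, the quasi-likelihood test and Benjamini-Hochberg adjustment over all genes tested at 0.05. CPM used TMM factors over the 8 samples. Standard errors of log2 fold changes were derived from the F statistic. Lengths came from GENCODE M21. Ratios were compared by two-sided exact permutation tests, in Python 3.11.15 with pandas 2.3.3.

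Male replicate 1 was left out of the sex comparison, as in the study. The members and lists were chosen with earlier results of these data known. Named genes were the members, genes of the pathway lists past the threshold, 9 genes of those lists whatever their result (*Nr5a1*, *Gnrhr*, *Egr1*, *Foxl2*, *Pou1f1*, *Trhr*, *Lhcgr*, *Fshr* and *Tshr*) and the 3 genes most like each of 4 members. Marker genes and genes that overlap a member were named as such. Others (*Thrb*, *Dio2*, *Thra*, *Tef*, *Fst*, *Inha*, *Acvr1b*, *Malat1* and the glycan enzymes) were named after their values were seen. Some genes of the lists are not reported here. Alternatives were DESeq2 (version 1.42.0), other scalings and filters, all 8 samples, a replicate block, sums per locus and leaving out each sample. The test was checked on simulated counts. Depth per sample and its floor are given with the data.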

Additional observations from a re-analysis of the deposited data

Results flagged for a closer look

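Of 55 groups of 4 samples of 1 sex that were examined, 5 had a sample far from the other 3 by Dixon's criterion, where chance gives about 2.75. Of these, 2 concern the subunit genes. The balance of *Cga* over the summed beta subunits was 2.63 in male replicate 4, against 0.763 to 0.899 in the other 3 males. The share of counts taken by *Cga*, *Lhb*, *Fshb* and *Tshb* was 2.82% in male replicate 1, against 6.04% to 6.59% in the other males.

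The other 3 were in females. *Prl*, the lactotrope hormone, was 18125 CPM in replicate 2, against 4671 to 6937 CPM. *Lhcgr* was 1.07 CPM in replicate 1 and 0 in the others. *Gata2* was 68.5 CPM in replicate 4, against 64.4 to 64.8 CPM, a gap that is wide only beside a narrow range.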

How the results depend on the processing

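The direction of the sex difference was kept by *Cga*, *Lhb*, *Fshb* and *Tshb* in each of 15 alternatives, and *Cga* and *Lhb* were called in none. The number of genes called was 471 and rose to 2329 with DESeq2 and to 808 with library size alone. With all genes of at least 1 count it was 177, and with male replicate 1 included (all 8 samples) it was 67. Leaving out single samples gave 88 to 171, and the replicate block gave 0 with edgeR, where 2954 genes had an unadjusted p under 0.05. Library size alone shifted the median over all genes to -0.24 (log2) and the calls higher in males from 198 to 133. *Fshb* missed the threshold with all genes of at least 1 count (log2 fold change 3.14, edgeR adjusted p = 0.0581), with all 8 samples (2.84, 0.143) and with the replicate block (3.09, 0.263), and it lay between 2.91 and 3.70 with each sample left out. *Tshb* passed it with DESeq2 (2.36, adjusted p = 9.34e-05), library size alone (2.15, 0.0496), at least 10 counts in every sample (2.36, 0.0415) and sums per locus (2.35, just under the threshold). With the replicate block, log2 fold changes were 0.72 for *Cga*, 0.54 for *Lhb* and 2.15 for *Tshb*. Same-numbered males and females did not deviate together over 20152 genes (r = -0.02, -0.01 and -0.00081 for numbers 2, 3 and 4). The labels do not say whether equal numbers share a batch, and these few pairs cannot exclude it. The log2 difference of the ratio of *Fshb* to *Lhb* was 2.19 with all 8 samples (exact permutation p = 0.0857) and between 2.48 and 3.09 with each sample left out. That of *Cga* to *Lhb* reversed to -0.086 with all 8 samples and to -0.19 without male replicate 4 (range -0.19 to 0.64); the cause was not tested. Those of *Cga* to *Fshb* (-3.09 to -2.04 with each sample left out) and *Tshb* to *Cga* (1.38 to 2.06) kept their direction. Alternatives for the 10 other genes were added after the data were seen. At these depths *Gphb5* and *Fshr* could not be told from absent.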
